A study of Mus musculus with 6 samples.

Results

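The genes described here are 10 genes of the cytosolic and endoplasmic reticulum (ER) chaperone systems: the HSP90 genes Hsp90aa1, Hsp90ab1 and Hsp90b1, the HSP70 genes Hspa1a, Hspa1b and Hspa8, the HSP70 partners Hsph1, Dnajb1 and Bag3, and the heat shock factor Hsf1. They were taken by gene symbol from a table of 24421 genes as targets and response genes of the HSP90 inhibitor 17-DMAG, which the study used in other experiments. No measured value was a criterion, but the choice was made with earlier results of these data known. All 10 were in the table and 9 had enough counts to be tested, Hspa1a being the exception. Total RNA came from 4T1-tetL1(GLucAI) cells, a mouse breast carcinoma line of strain BALB/cfC3H, with a PiggyBac-integrated doxycycline-inducible LINE-1 (L1) reporter that is read out by Gaussia luciferase. One group was untreated (its treatment tag reads vehicle) and the other received 400 ng/mL doxycycline for 48 h, with 3 libraries in each. The L1 is a recoded mouse element that shares a bidirectional tetracycline-inducible promoter with firefly luciferase, and the Tet-On 3G transactivator, expressed from an EF1α promoter, switches both on in the presence of doxycycline. Both groups carry the cassette, the transactivator and a blasticidin resistance gene, and the line is a selected population and not 1 clone. No library came from cells without the cassette, so actions of doxycycline itself, of firefly luciferase and of L1 cannot be told apart. The cassette transcript was not analysed here, and every direction rests on the library labels. No library was exposed to 17-DMAG, so the values describe the chaperone genes before any treatment with that drug.

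HSP90 is an ATP-dependent chaperone that holds kinases, steroid receptors and other signalling proteins, its clients, in a foldable state. HSP70 acts earlier on nascent and unfolded chains, with J-domain proteins such as Dnajb1 loading substrates and nucleotide exchange factors such as Hsph1 and Bag3 releasing them. HSF1 is held inactive by chaperones in unstressed cells, and when HSP90 is inhibited or proteins unfold it is released, binds heat shock elements and raises Hspa1a, Hspa1b, Hsp90aa1, Dnajb1, Hsph1 and Bag3. Hsp90ab1 and Hspa8 are the constitutive counterparts, and Hsp90b1 (GRP94) is the HSP90 of the ER, which follows the unfolded protein response.

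The HSP70 pair Hspa1a and Hspa1b is shown first, by the near-identical sequence upstream of each gene. How far their counts can be separated depends on the transcripts, described below, and not on these upstream bases. The sequences below are the 250 bases before each start in RefSeq on GRCm38.p6, minus strand, written 5′ to 3′, at chr17:34972157-34972406 for Hspa1a and chr17:34959239-34959488 for Hspa1b. Capitals mark the only match in each to the 2-unit heat shock element, which begins 104 bases before the start in both.
Hspa1a: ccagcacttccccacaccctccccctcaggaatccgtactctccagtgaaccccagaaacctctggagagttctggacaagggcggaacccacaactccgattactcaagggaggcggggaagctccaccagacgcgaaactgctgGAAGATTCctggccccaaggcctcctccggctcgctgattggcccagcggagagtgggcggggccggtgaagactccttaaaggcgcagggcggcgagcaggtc
Hspa1b: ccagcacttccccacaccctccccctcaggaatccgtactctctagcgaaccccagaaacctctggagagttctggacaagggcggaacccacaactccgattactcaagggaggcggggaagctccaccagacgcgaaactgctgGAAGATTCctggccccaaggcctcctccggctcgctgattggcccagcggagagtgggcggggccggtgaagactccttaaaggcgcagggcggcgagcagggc

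Compared without gaps, these upstream sequences were identical at 247 of 250 positions (98.8%). The element searched was GAANNTTC or TTCNNGAA, each of which reads the same on both strands, and the 3-unit form GAANNTTCNNGAA or its reverse complement TTCNNGAANNTTC, which contains the 2-unit form. In windows from 250 bases before to 50 bases after a start, the 2-unit form occurred in 15.1% of 32851 promoters and the 3-unit form in 0.603%. Promoters of 6 of the 10 genes were matched in the RefSeq table, those of Hsp90b1, Hspa1a, Hspa1b, Hsph1, Dnajb1 and Bag3. Hsph1 alone among them held the 3-unit form, in both of its listed promoters. It lies just after the start, in the window chr5:149636280-149636309 on the minus strand, again with the match in capitals.
Hsph1: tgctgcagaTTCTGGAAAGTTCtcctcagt

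Bag3 had a single 2-unit match, 42 bases after its listed start. It is shown because Bag3 had the widest spread between libraries among the 9 tested genes, and lies in the window chr7:128523603-128523632 on the plus strand.
Bag3: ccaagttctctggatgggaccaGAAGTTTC

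Neither the window of Hsp90b1 nor those of Dnajb1 held a match. A match is a run of letters and no evidence of binding, and a window without these letters says nothing about the factor.

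The transcripts differ widely in how much of their sequence is their own, which bears on the counts, since no source used here states what was done with multiply mapped reads. Every stretch of 50 bases of each gene's longest protein-coding transcript (GENCODE M21, GRCm38) was searched in the transcripts of all other genes. In Hspa1a 66.3% and in Hspa1b 62.3% of the stretches recurred elsewhere, mostly in the other gene of the pair (1716 stretches). In Hspa8 74.8% recurred, most often in the processed pseudogene Gm15459, and in Hsp90aa1 58.5% recurred, most often in the pseudogene Gm12346. The shares were much lower for Hsp90b1 (13.8%), Hsp90ab1 (4.49%) and Dnajb1 (0.441%), and 0% for Hsph1, Hsf1 and Bag3. For Hspa1a, Hspa1b and Hsp90aa1 the longest unshared part lay at the 3′ end of the transcript, for Hspa8 at the 5′ end. How far this affects the counts of Hspa1a, Hspa1b, Hspa8 and Hsp90aa1 was not tested, and the shares do not measure it.

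**Figure D1:**
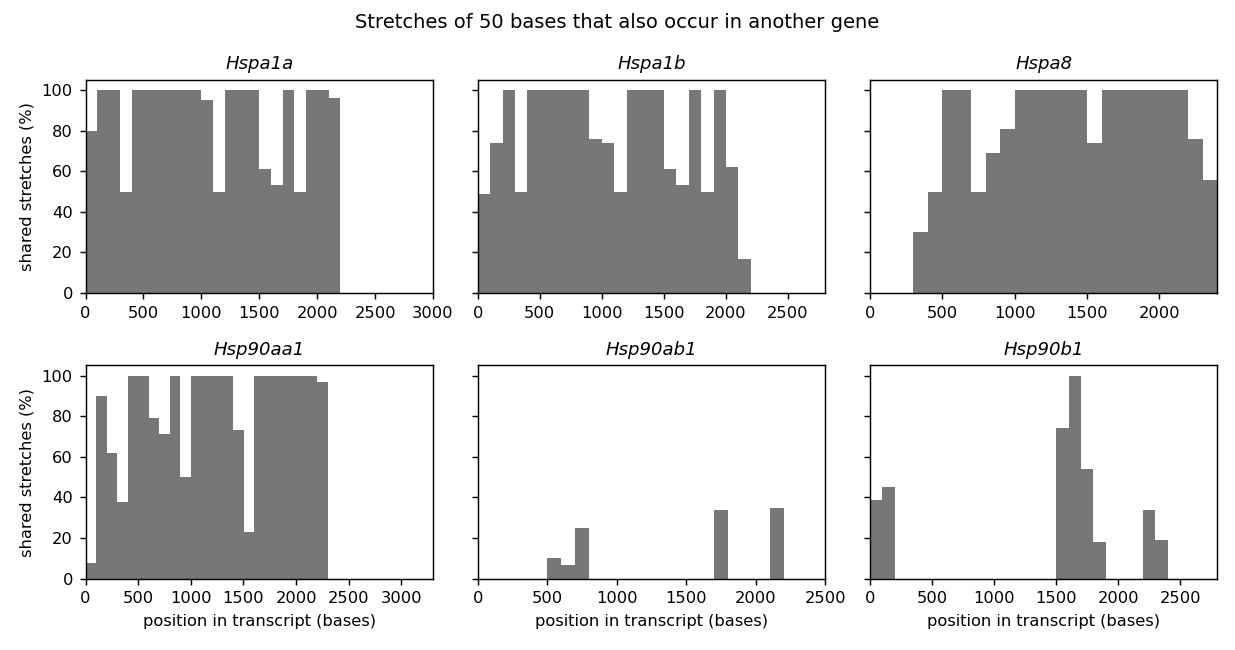
Each bar gives, for 100 neighbouring start positions along the longest protein-coding transcript (x axis, bases from the 5′ end), the percentage of 50-base stretches that also occur in a transcript of another gene (y axis). The longest runs without sharing are the 3′ ends of Hspa1a, Hspa1b and Hsp90aa1 and the 5′ end of Hspa8, the rest of these 4 transcripts is shared to a varying degree, and sharing touches Hsp90ab1 (4.49% of stretches overall) and Hsp90b1 (13.8%) in a few places.

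Library totals ran from 31653464 to 43631312 counts, with the ranges of the groups overlapping, and counts are given as CPM, counts scaled to a common library total. Values under 3 counts, 0.0688 to 0.0948 CPM, were treated as at the floor, which reflects counting error alone. The 45S precursor Rn45s took between 8.83 and 12.1% of the counts. All 8 epithelial markers were tested, Epcam, Cdh1, Krt8 and Krt18 among them. Their sum ran from 1867 to 1954 CPM in untreated and from 1812 to 2048 CPM in doxycycline libraries. The log2 fold change was above 0 in 6 of them (at most 0.25) and below in 2, with 0 called higher and 1 lower. Krt19 was lower (63.5 ± 2.15 against 51.4 ± 4.22 CPM). Of the 5 endothelial markers 0 passed the filter on low counts, and their sum was at most 0.810 CPM. Of the 7 fibroblast markers 3 were tested, and Col3a1 and Lum had 0 counts in every library. Among the 3 tested, the log2 fold change was above 0 in 1 (0.65) and below in 2. Pdgfra was lower with doxycycline (36.7 ± 1.37 against 27.8 ± 0.669 CPM, SD, n = 3 each). The summed list, most of it Pdgfra, ran from 35.7 to 38.7 CPM in untreated and from 28.0 to 29.6 CPM in doxycycline libraries. Of the 7 leukocyte markers 2 were tested, and the sum ran from 25.8 to 28.5 and from 20.8 to 23.5 CPM. Cd14 was lower (17.2 ± 1.59 against 12.3 ± 0.363 CPM), while the T cell marker Cd3e had at most 2 counts and the macrophage marker Adgre1 had 0. The part of these markers in the values below was not tested.

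The HSP90 genes and Hspa8 were among the most abundant transcripts of these cells, Hsp90ab1 at percentile 99.9 of mean CPM over the tested genes and Hsp90b1 at 99.5. Together the 10 genes took 0.841 to 0.903% of all counts in a library. Levels of different genes are compared here per length, as CPM per kilobase of merged exons, for the untreated libraries. Hsp90ab1 was highest at 1121 ± 48.4 CPM per kilobase (SD, n = 3), followed by Hsp90aa1 at 565 ± 21.0, Hspa8 at 396 ± 3.96 and Hsp90b1 at 223 ± 5.57 CPM per kilobase. A wide gap separated these from Hsph1 at 41.4 ± 1.09, Bag3 at 23.7 ± 2.34, Dnajb1 at 14.2 ± 0.967, Hsf1 at 6.84 ± 0.141 and Hspa1b at 5.24 ± 0.156 CPM per kilobase. Hspa1a was last at 0.104 ± 0.0285 CPM per kilobase. With these lengths, no neighbours in this order had overlapping ranges over the 3 untreated libraries. The order was the same in the doxycycline libraries, where Hsp90ab1 stood at 1133 ± 36.3 and Hspa1b at 4.67 ± 0.231 CPM per kilobase. The order rests on merged exon lengths, which for some genes far exceed the longest protein-coding transcript. They were 4301 against 2394 bases for Hspa8 and 7099 against 2104 bases for Hsf1. With the length of the longest protein-coding transcript the order does not hold. Hspa8 (untreated mean 1701 CPM, 2394 bases) would then stand above Hsp90aa1 (2219 CPM, 3281 bases). Likewise, Hsf1 (48.5 CPM, 2104 bases) would stand above Dnajb1 (45.4 CPM, 2996 bases). How shared sequence bears on the levels of Hsp90aa1, Hspa8, Hspa1a and Hspa1b was not tested.

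**Figure D2:**
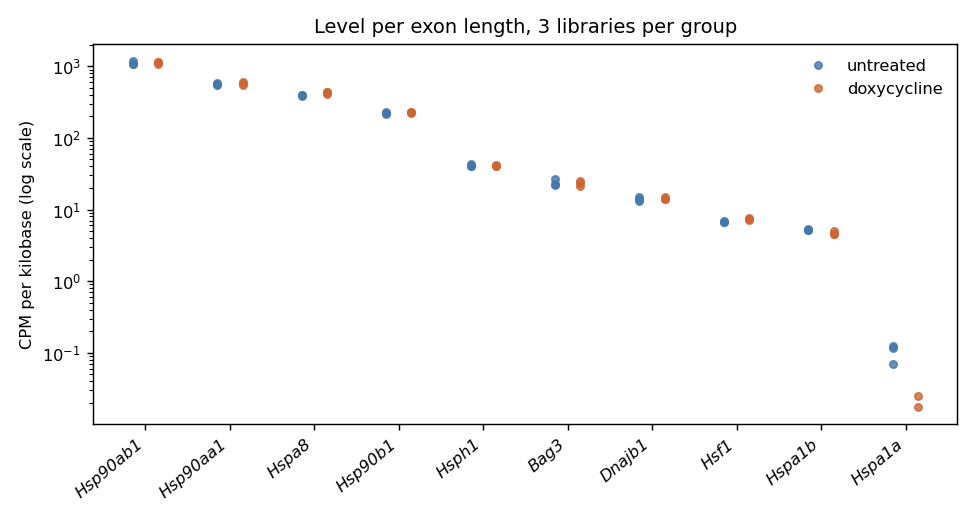
CPM per kilobase of merged exons (y axis, log scale) for each gene in each library, untreated in blue and doxycycline in orange, ordered by the untreated mean. Hsp90ab1, Hsp90aa1, Hspa8 and Hsp90b1 lie far above the rest (untreated means of 223 and over), and the doxycycline library of Hspa1a with 0 counts cannot be drawn on this scale.

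The comparison of doxycycline with untreated libraries asks whether doxycycline, in cells with the L1 cassette, moves the targets and response genes of the HSP90 inhibitor. None of the 9 tested genes passed the threshold, an adjusted p of 0.05 over all 13084 genes tested (edgeR quasi-likelihood test, Benjamini-Hochberg). The count was 0 higher and 0 lower, where 0.925% of all tested genes were called higher and 2.16% lower. At an unadjusted p under 0.05 there was 1 of 9, Hspa8, against 16.2% of all tested genes. Of the 9, 6 had a log2 fold change above 0 and 3 below, with a median of 0.025, beside a median of 0.0025 over all tested genes. The values ran from -0.17 in Hspa1b to 0.13 in Hspa8. With DESeq2 1 gene was called, Hspa8, and with limma voom 0.

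**Figure D3:**
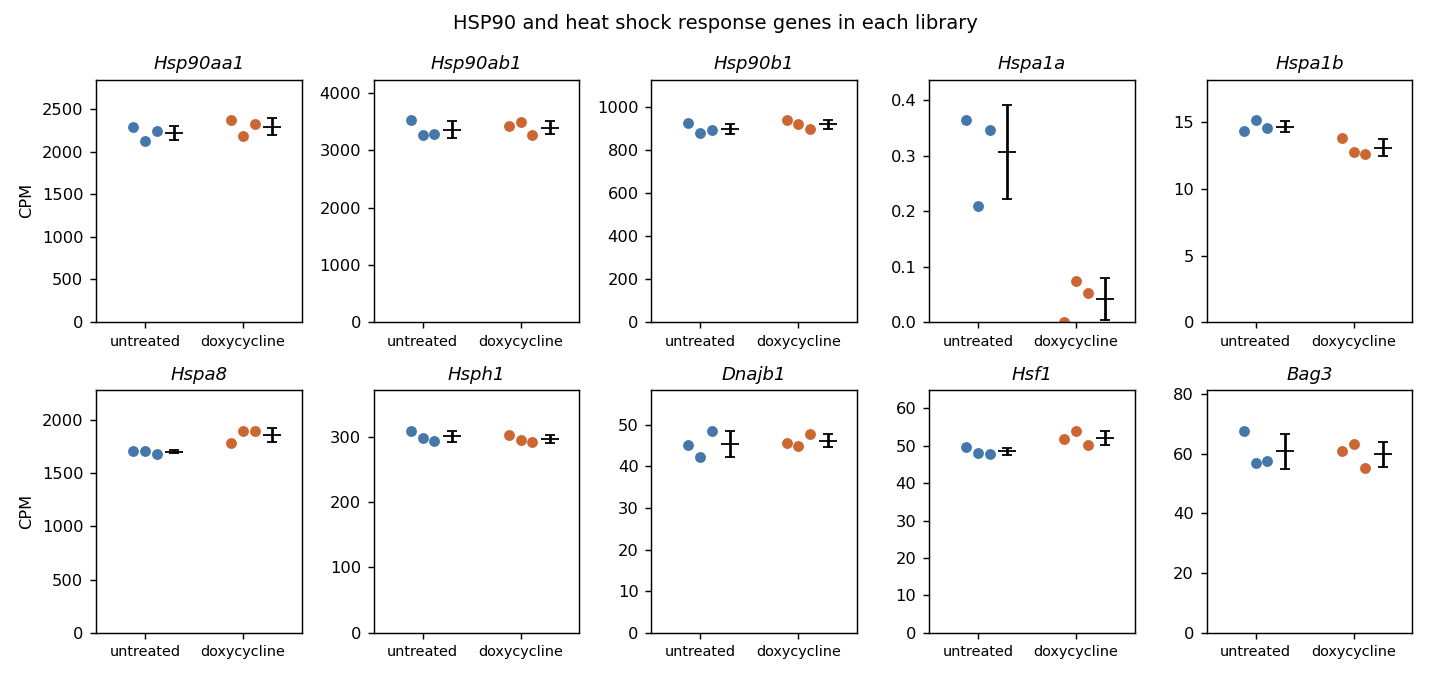
CPM (y axis, from 0, own scale in each panel) of the 10 genes in the 3 untreated (blue) and 3 doxycycline (orange) libraries, replicates 1 to 3 from left to right, with the mean and SD of each group in black. The groups overlap for Hsp90aa1, Hsp90ab1, Hsp90b1, Hsph1, Dnajb1 and Bag3, and lie apart for Hspa8, Hsf1, Hspa1b and Hspa1a.

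**Figure D4:**
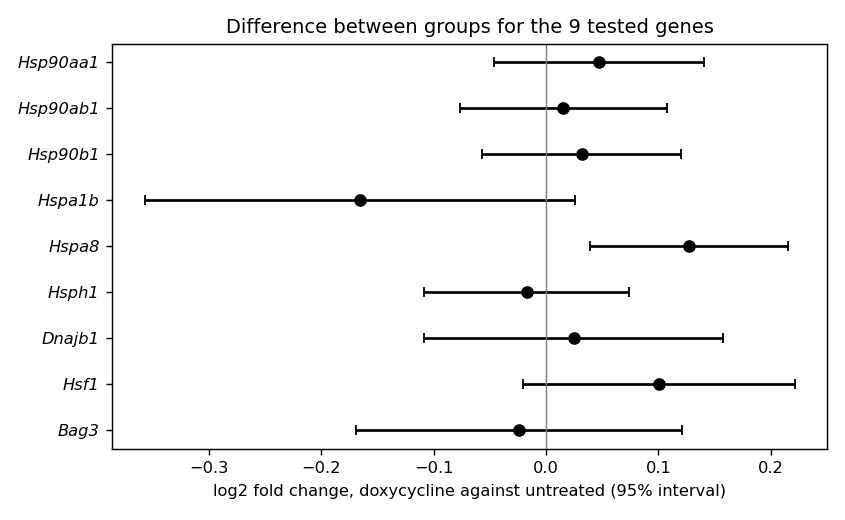
Log2 fold change of doxycycline against untreated libraries (x axis) for the 9 tested genes, points with 95% intervals from the edgeR quasi-likelihood fit. Only the interval of Hspa8, 0.039 to 0.22, does not include 0, and it is not adjusted for the number of genes.

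The cytosolic HSP90 genes, the direct targets of 17-DMAG, differed little between libraries. Hsp90aa1 (chromosome 12, 110690605 to 110702728, protein-coding), the stress-inducible form, had 2290, 2129 and 2238 CPM in untreated replicates 1 to 3 and 2368, 2182 and 2329 CPM in doxycycline replicates 1 to 3. The groups overlapped, with untreated replicate 2 lowest and doxycycline replicate 1 highest. On the log2 scale it differed by 0.047 (SE 0.045, adjusted p 0.661 in edgeR), with a 95% interval from a 0.968-fold to a 1.10-fold level.

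Hsp90ab1 (chromosome 17, 45567775 to 45573271, protein-coding), the constitutive form, had 3530, 3275 and 3283 CPM in untreated and 3428, 3491 and 3279 CPM in doxycycline libraries. Untreated replicate 1 was the highest of the 6 and the groups overlapped. Doxycycline minus untreated came to 0.015 on the log2 scale (SE 0.044, adjusted p 0.905 in edgeR), and the interval ran from 0.948-fold to 1.08-fold. Its sign changed when single libraries were left out (-0.0044 to 0.052). Together both forms took between 0.538 and 0.586% of all counts.

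The balance of the inducible to the constitutive form was examined within each library, which does not depend on scaling between libraries. Per length, Hsp90aa1 stood at 0.495, 0.496 and 0.520 times Hsp90ab1 in untreated and at 0.527, 0.477 and 0.542 times in doxycycline libraries. The doxycycline libraries included both the lowest and the highest ratio. On the log2 scale the difference was 0.031 (exact permutation test, two-sided, p = 0.6, n = 3 each, where 0.1 is the smallest p possible), and the sign turned, to -0.0062, without doxycycline replicate 3.

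Hsp90b1 (chromosome 10, 86690209 to 86705509, protein-coding, overlapping 1810014B01Rik), the ER paralog, had 922, 879 and 892 CPM in untreated and 937, 919 and 896 CPM in doxycycline libraries. The ranges overlapped and every library was within 1.07-fold of every other. This gave a log2 difference of 0.032 (SE 0.042, adjusted p 0.775 in edgeR), with an interval from 0.961-fold to 1.09-fold. Hspa5, the ER member of the HSP70 family (BiP), had 1758 ± 21.4 and 1829 ± 32.5 CPM (SD, n = 3 each) and was not called either (edgeR adjusted p 0.529).

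By likeness over the 6 libraries (Pearson's r of log2 CPM), the genes closest to Hsp90aa1 were Gins2, Fbxo45 and Eif2s2, with r of 0.990, 0.989 and 0.989, and 22 of 13075 genes exceeded 0.95. Those closest to Hsp90ab1 were Ankrd42 (0.997), Slc2a9 (0.994) and Keap1 (0.990), with 19 genes over 0.95. These are descriptions over 6 points that share library and depth.

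Among the HSP70 genes the log2 fold change was above 0 for Hspa8 and below 0 for Hspa1b, and neither was called in the main edgeR test. Hspa8 (chromosome 9, 40800984 to 40810087, protein-coding), the constitutive HSC70 that also uncoats clathrin vesicles, had 1712, 1711 and 1682 CPM in untreated and 1784, 1896 and 1894 CPM in doxycycline libraries. All 3 doxycycline libraries were above all 3 untreated ones, as for 10.1% of the tested genes, and doxycycline replicate 1 was closest to the untreated range. Its log2 difference was 0.13 (SE 0.042, unadjusted p 0.00677, edgeR adjusted p 0.118), with an interval from 1.03-fold to 1.16-fold, so Hspa8 did not pass the threshold. It passed without doxycycline replicate 1 (0.16, edgeR adjusted p 0.0469) and without doxycycline replicate 2 (0.11, 0.0458). It also passed with a correction for GC content and transcript length (0.13, edgeR adjusted p 0.0218) and in the DESeq2 Wald test (0.13, adjusted p 0.0367). Its adjusted p under 18 alternatives lay between 0.0218 and 0.420, the latter without untreated replicate 3. Snord14c and Snord14d overlap the gene, and how they and the pseudogenes bear on its counts was not tested.

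Hspa1b (chromosome 17, 34956436 to 34959238, protein-coding), a stress-inducible HSP70 and a classic target of HSF1, had 14.3, 15.2 and 14.6 CPM in untreated and 13.8, 12.8 and 12.6 CPM in doxycycline libraries. All 3 doxycycline libraries lay below all 3 untreated ones, as for 11.1% of the tested genes. The fitted difference was -0.17 on the log2 scale (SE 0.092, adjusted p 0.394 in edgeR), and the interval ran from 0.781-fold to 1.02-fold.

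Hspa1a (chromosome 17, 34969190 to 34972156, protein-coding), its neighbour with the near-identical upstream sequence shown above, had 16, 7 and 13 counts in untreated and 0, 3 and 2 counts in doxycycline libraries. The groups did not overlap, but the doxycycline libraries were at or under 3 counts, and the gene fell under the filter on low counts. No fold is given against counts this low. The value depended on the filter and on 1 library. Tested without a filter its edgeR adjusted p was 0.0773. In the leave-one-out fits that kept it, the adjusted p lay between 0.0435 (without doxycycline replicate 2) and 0.177, but it passed the filter there only through the untreated libraries, where it is higher, so these values are no support for a difference. Hspa1a made up 1.36 to 2.48% of the pair's counts in untreated and 0 to 0.570% in doxycycline libraries.

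Because reads can be split between the pair, both genes were also summed before testing. Summing does not restore reads that were counted for neither gene, and whether there were such reads is not known. The sum was 14.7, 15.4 and 14.9 CPM in untreated and 13.8, 12.9 and 12.7 CPM in doxycycline libraries, a log2 fold change of -0.19 (SE 0.091, unadjusted p 0.0486, edgeR adjusted p 0.305). The summed pair remained rare beside HSC70 in every library. Lengths here are merged exons, 2803 bases for the pair and 4301 for Hspa8. With the longest protein-coding transcript of Hspa8, 2394 bases, each ratio would be lower. Per length, the pair stood at 0.0132, 0.0138 and 0.0136 times Hspa8 in untreated libraries. In doxycycline libraries it stood at 0.0119, 0.0104 and 0.0103 times, with no overlap between the groups. The difference was -0.32 on the log2 scale (exact permutation test, two-sided, p = 0.1, n = 3 each, the smallest p this design allows). The pair was already lower and Hspa8 already higher in all 3 doxycycline libraries. The separation of their ratio follows from that and is no further support for a difference.

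The HSP70 partners did not separate the groups. Hsph1 (chromosome 5, 149614287 to 149636376, protein-coding), the HSP110 exchange factor with the 3-unit element shown above, had 309, 299 and 294 CPM in untreated and 303, 296 and 292 CPM in doxycycline libraries. The spread over all 6 was 1.06-fold, the smallest of the 10 genes. A log2 difference of -0.017 was fitted (SE 0.044, adjusted p 0.893 in edgeR), and the interval ran from 0.928-fold to 1.05-fold.

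Dnajb1 (chromosome 8, 83608193 to 83612653, protein-coding), the HSP40 J-domain protein, had 45.2, 42.4 and 48.5 CPM in untreated and 45.7, 45.0 and 47.9 CPM in doxycycline libraries. The untreated libraries enclosed the doxycycline range. The fitted log2 difference was 0.025 (SE 0.064, adjusted p 0.895 in edgeR), with an interval from 0.928-fold to 1.12-fold. It turned negative without untreated replicate 2 (-0.020) or doxycycline replicate 3 (-0.0025).

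Bag3 (chromosome 7, 128523616 to 128546981, protein-coding), which links HSP70 to selective autophagy, had 67.6, 56.8 and 57.7 CPM in untreated and 60.9, 63.3 and 55.0 CPM in doxycycline libraries. Untreated replicate 1 stood above the other 5. The log2 fold change came to -0.024 (SE 0.070, adjusted p 0.906 in edgeR, interval from 0.889-fold to 1.09-fold), and it turned positive without untreated replicate 1 (0.062) or doxycycline replicate 3 (0.032). Among the tested genes Bag3 had the widest spread, 1.23-fold over 6 libraries.

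Hsf1 (chromosome 15, 76477422 to 76501913, protein-coding), the transcription factor of the response, had 49.7, 48.0 and 47.9 CPM in untreated and 51.7, 54.0 and 50.4 CPM in doxycycline libraries. All 3 doxycycline libraries were above the untreated ones, by a small margin. The log2 difference was 0.10 (SE 0.058, adjusted p 0.414 in edgeR), with an interval from 0.986-fold to 1.17-fold. HSF1 is controlled mainly by release from chaperones, phosphorylation and trimer formation, which RNA counts do not show. Its relative Hsf2 had 31.7 ± 2.23 and 32.6 ± 3.70 CPM (SD, n = 3 each, edgeR adjusted p 0.861).

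Of the 9 tested genes, the groups did not overlap with doxycycline higher for 2, Hspa8 and Hsf1, and with doxycycline lower for 1, Hspa1b. With 10.1% and 11.1% of all tested genes in these classes, shares over 9 genes are coarse, and none of the 3 was called. Every interval of the 9 genes lay between 0.781-fold and 1.17-fold. A change of 1.5-fold in either direction is thus outside the interval of each tested gene, while changes within these intervals could not be told from none with 3 libraries in each group.

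Genes around the HSP90 and HSP70 machines were taken from 7 lists written from general knowledge, which together held 126 genes other than the 10, of which 122 were tested. Of these edgeR called 0 higher and 2 lower, Clu and Sqstm1, both from the list of other heat shock response genes, where 0.925% of all tested genes were called higher and 2.16% lower, so the count of lower calls is no larger than that share would give. DESeq2 and limma voom gave 0 and 2 as well, the GC content and length correction 4 higher and 5 lower, and leaving out doxycycline replicate 2 gave 2 higher and 4 lower.

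HSP90 co-chaperones, which load clients and set the ATPase cycle, gave 0 calls in edgeR among 22 tested genes and 2 at an unadjusted p under 0.05. Their log2 fold changes were above 0 in 14 and below in 8, and the median was 0.015. Ahsa1, the activator of the HSP90 ATPase and an HSF1 target, had 113, 107 and 104 CPM in untreated and 115, 117 and 119 CPM in doxycycline libraries, with no overlap (0.11 on the log2 scale, SE 0.049, adjusted p 0.246 in edgeR). Cdc37, which brings kinases to HSP90, had 133 ± 4.19 and 135 ± 7.85 CPM (edgeR adjusted p 0.885). Stip1, the adaptor between HSP70 and HSP90, was at 325 ± 2.92 and 328 ± 1.57 CPM (edgeR adjusted p 0.898). Ptges3 (p23) had 475 ± 16.2 and 452 ± 63.1 CPM, the wider spread coming from doxycycline replicate 2 at 379 CPM (edgeR adjusted p 0.740).

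The list of other heat shock response genes had 24 tested members, 8 above and 16 below 0, with a median log2 fold change of -0.036. At an unadjusted p under 0.05 there were 6, of which 2 were higher and 4 lower with doxycycline, where 16.2% of all tested genes reached that p. Clu, an extracellular chaperone that other stress pathways also regulate, fell from 67.0, 64.5 and 67.1 CPM to 53.5, 57.6 and 50.7 CPM. The groups were well apart (-0.29 on the log2 scale, SE 0.059, adjusted p 0.00592 in edgeR). The call was lost without untreated replicate 3 (edgeR adjusted p 0.0575) and without doxycycline replicate 3 (0.0632). Sqstm1, the autophagy receptor p62, fell from 278, 273 and 292 CPM to 244, 245 and 242 CPM, again without overlap (-0.20 on the log2 scale, SE 0.044, adjusted p 0.0113 in edgeR). Its call was lost without untreated replicate 1 (edgeR adjusted p 0.0535), untreated replicate 3 (0.150) or doxycycline replicate 3 (0.0610).

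The small heat shock proteins in that list were not called. Hspb1 (HSP25) was nearly absent, at 0.271 ± 0.117 and 0.451 ± 0.185 CPM, and Cryab (αB-crystallin) had 14.3 ± 0.269 and 14.4 ± 1.32 CPM (SD, n = 3 each, edgeR adjusted p 0.477 and 0.972).

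In the list of the HSF1 family and its regulators 15 genes were tested in edgeR, 7 above and 8 below 0, with a median of -0.013, 0 calls and 1 gene at an unadjusted p under 0.05. The HSP70 partner list gave 10 above and 13 below 0 of 23, with a median of -0.015, 0 calls and 2 genes at that p. ER chaperones were evenly divided, 10 above and 10 below 0 of 20, with a median of 0.0074, 0 calls and 4 genes at that p. These lists share some genes with each other.

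Clients of HSP90 are proteins, and their stability under the drug is not visible in RNA. Of 24 tested client genes 15 were above and 9 below 0, with a median log2 fold change of 0.023, 0 calls in edgeR and 1 gene at an unadjusted p under 0.05. Erbb2, whose product HER2 depends on HSP90, had 44.6 ± 1.49 and 42.1 ± 4.27 CPM (SD, n = 3 each, edgeR adjusted p 0.610).

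A list of 3 genes covered the handling of 17-DMAG in the cell, with 0 calls in edgeR. At an unadjusted p under 0.05 there was 1 gene, where 16.2% of all tested genes reached that p. Nqo1, the quinone reductase that turns this drug class into its more active hydroquinone form, had 8.84, 8.60 and 8.22 CPM in untreated and 7.23, 7.10 and 7.63 CPM in doxycycline libraries, without overlap and without passing the threshold (log2 fold change -0.23, SE 0.11, edgeR adjusted p 0.339). Abcb1b, a P-glycoprotein gene, had 132, 126 and 134 CPM in untreated and 146, 142 and 141 CPM in doxycycline libraries. Its groups were also apart and it was also not called (log2 fold change 0.13, SE 0.046, edgeR adjusted p 0.143). Groups lay apart with doxycycline lower in 11.1% and higher in 10.1% of all tested genes.

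**Figure D5:**
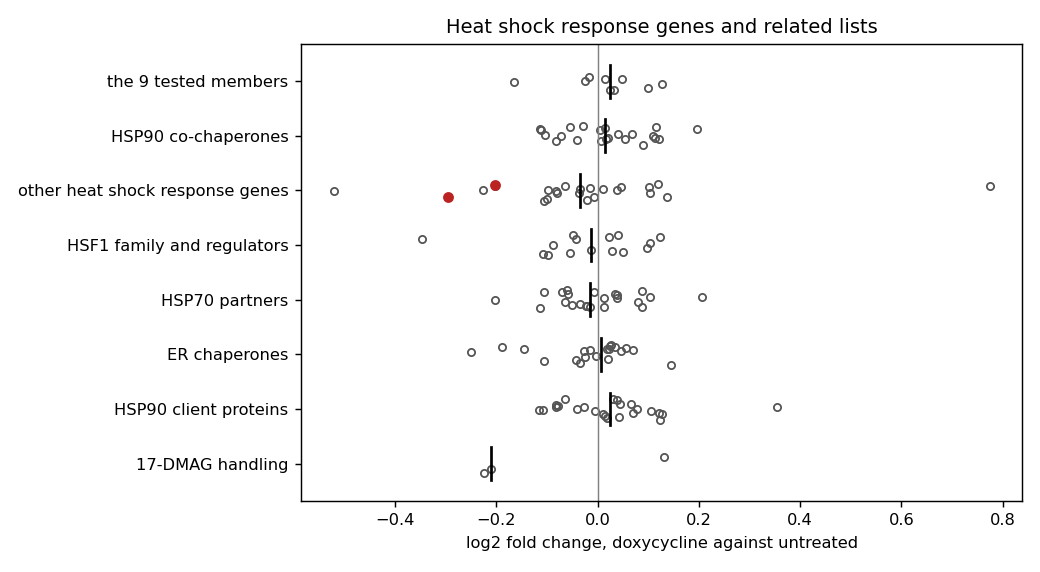
Log2 fold change of doxycycline against untreated libraries (x axis) for the 9 tested heat shock genes and the genes of 7 related lists, 1 circle per gene, with the median of each row as a black bar and genes past the threshold in red. The 2 red points are Clu (-0.29) and Sqstm1 (-0.20), and the circle farthest to the right is the weakly expressed Hspb1 (0.77).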

How the data were processed

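Total RNA of 6 cultures was depleted of ribosomal RNA and sequenced with a strand-marking kit. The authors aligned reads with STAR to mm10/GRCm38 and deposited raw read counts per gene from featureCounts (Subread 1.6.2 per the labels), not normalized and with replicates apart. The strand setting and the treatment of multiply mapped reads are not given in the sources used here. All 6 columns were matched to samples by library code.

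The main test was edgeR 4.0.16 (quasi-likelihood, robust, TMM, filterByExpr) in R 4.3.3 with group as the only term, over 13084 genes, Benjamini-Hochberg threshold 0.05. The study used DESeq2, run here (1.42.0) as an alternative beside limma 3.58.1 voom. Each SE was obtained from the F statistic and the fold change, and 95% intervals from the t distribution. CPM used TMM-scaled totals. The study calls the cultures biological triplicates. The labels do not say how they were separated, so p-values measure the spread between these samples. Replicate pairs differed by more than sampling noise (chi-square per degree of freedom 6.17 to 22.2).

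The 10 genes and the lists were chosen with earlier results of these data known. Named genes are the 10, up to 3 called genes of each list with the smallest adjusted p, 11 genes set by name and the 3 genes most like each of Hsp90aa1 and Hsp90ab1. Listed symbols were matched to the table directly or, for Hikeshi, by an older symbol, and Hsp25-ps1 was not matched. Lengths, coordinates and transcripts were from GENCODE M21 (GRCm38), counted from 1. Same-numbered libraries did not deviate together (r of deviations -0.040, -0.0045 and 0.018). On simulated counts of 12970 genes changes of 1 log2 unit were called in 99% and changes of 0.5 in 89% of the altered genes, and 8.74% of all calls were false. The altered genes all had a mean above 1 CPM, and counts were drawn with the fitted dispersions. These rates therefore do not cover genes near the floor.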

Additional observations from a re-analysis of the deposited data

How the results depend on the processing

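None of the 9 tested heat shock genes was called under other scalings, in limma voom, with no filter or a minimum of 10 counts in each library, leaving out Rn45s, thinned libraries or the summed Hspa1a and Hspa1b. The count of those called higher was 1 (Hspa8) in the DESeq2 Wald test and 1 (Hspa8) with the GC content and transcript length correction, which used GC content and length known for 96.4% of the tested genes. Leaving out one library gave 0 to 1 higher (Hspa8, without doxycycline replicate 1 or 2) and, over all 10 genes, 0 to 1 lower. The 1 is Hspa1a without doxycycline replicate 2, which is not among the 9 and passed the filter there only through the untreated libraries. The cause was not tested. With the replicate block 0 were higher and 0 lower, and over all genes 118 were higher and 300 lower, against 121 and 283. The libraries share only a number.

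Over all genes, no filter gave 210 higher and 439 lower, the GC content and length correction gave 325 and 499, and leaving out one library gave 44 to 269 higher and 116 to 487 lower, the lowest without untreated replicate 3 and the highest without doxycycline replicate 2. In the 7 lists together, the correction gave 4 higher and 5 lower, and leaving out one library gave 0 to 2 higher and 0 to 4 lower. Signs turned with single libraries for Hsp90ab1 (-0.0044 to 0.052), Hsph1 (-0.034 to 0.0035), Dnajb1 (-0.020 to 0.075) and Bag3 (-0.070 to 0.062), and for the ratio of Hsp90aa1 to Hsp90ab1 (-0.0062 to 0.086). Hsp90aa1, Hsp90b1, Hspa1b, Hspa8 and Hsf1 kept their direction in all 18 alternatives each. Under every scaling tried the overall median stayed between -0.0074 and 0.0025.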
